A study of Homo sapiens with 4 samples.

Results

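Interferon-stimulated genes, the genes that interferons switch on in an infected or alerted cell, were followed in HuH7 cells with and without an intact KDM6B gene. A list of 40 such genes was used, chosen by name with earlier results of these data known. A probe set counted for a gene only where the platform's annotation gave it that single symbol. Probe sets were found for 39 of the 40 genes, 63 probe sets in all, among 19775 genes measured, and STAT2 was not analysed here. Each gene was read from its brightest probe set by the mean of all arrays, with its other probe sets as a check.

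The series comprised 4 Affymetrix Human Genome U133 Plus 2.0 arrays, 2 of KDM6B knockout cells and 2 of KDM6B wild-type cells. KDM6B encodes a demethylase that removes methyl groups from lysine 27 of histone H3. Both groups were HuH7, an established human hepatocellular carcinoma line, grown in RPMI medium with serum, and no treatment is named in the labels. Knockout cells received a guide vector and a Cas9 vector, were selected with G418, and were subcloned by limiting dilution. Nothing in the labels states if the knockout arrays represent different subclones, if the wild-type cells were transfected and cloned as well, or if arrays of a group come from separate cultures. A response to loss of KDM6B and a difference between a subclone and the parental cells therefore cannot be told apart, and the p-values measure only the spread between these arrays, which may be technical.

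Cells sense viral RNA in the cytosol through helicases such as RIG-I and MDA5, and the signal leads to secretion of interferon. Type I and type III interferons act through receptors coupled to Janus kinases, which activate STAT proteins, and these join IRF9 to form a transcription factor called ISGF3. ISGF3 binds a promoter element, the interferon-stimulated response element (ISRE), and the genes it turns on block viral entry, RNA replication, translation and release. Cells of hepatic origin express this programme in response to hepatitis viruses and to interferon treatment.

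The values are log2 expression values from robust multi-array averaging (RMA), and differences are knockout minus wild type. Replicate arrays correlated at 0.994 in knockout and 0.993 in wild type, and arrays of different groups at 0.985 to 0.989. The 10 hepatocyte markers were read well up the scale in all arrays, with ALB (albumin) at 13.82 and 13.96 in knockout and 13.90 and 13.70 in wild type. KDM6B itself read 7.95 and 8.14 in knockout and 8.46 and 8.27 in wild type, a difference of -0.32 (SE 0.12) that did not pass limma's test (adjusted p = 0.235). All 5 of its probe sets were lower in knockout, by 0.21 to 0.40, and 0 were called. A probe set away from the cut checks nothing about a knockout, so these values do not test the labels.

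Promoters were searched for the element through which ISGF3 acts, and a few that hold it are shown because their genes behaved differently in these arrays. Promoter sequences came from RefSeq (GRCh38.p14), which held 30 of the 39 genes, and the 250 bases before each annotated start were searched on both strands for its core, here a pair of GAAA half-sites on the same strand with any 2 bases between them. Of the 30 genes, 20 held at least 1 core (66.7%), against 3.71% of 27305 genes with a promoter in the table. Capitals mark 1 core of each gene, read 5′ to 3′ on the strand of the gene, so that a core on the other strand appears as its reverse complement. Other cores that some of these genes hold are not marked, also where they fall within the bases shown. The first 5 genes rose in knockout and the last 3 did not pass the test. Of the last 3, SAMD9 was below the 25th percentile of every array, and its probe sets disagreed, at -0.02 and 0.68.
ISG15, chr1:1013375-1013414, plus strand: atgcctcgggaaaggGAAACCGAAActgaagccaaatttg
IFIT1, chr10:89392505-89392544, plus strand: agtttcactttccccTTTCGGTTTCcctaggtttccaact
IFIT3, chr10:89327860-89327899, plus strand: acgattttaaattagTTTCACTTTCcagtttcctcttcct
IFITM1, chr11:313985-314024, plus strand: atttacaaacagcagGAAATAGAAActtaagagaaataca
BST2, chr19:17405730-17405769, minus strand: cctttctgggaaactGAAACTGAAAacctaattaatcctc
IFIT5, chr10:89414508-89414547, plus strand: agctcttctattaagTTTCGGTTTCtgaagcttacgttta
IFITM3, chr11:320871-320910, minus strand: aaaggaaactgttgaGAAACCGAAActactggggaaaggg
SAMD9, chr7:93118091-93118130, minus strand: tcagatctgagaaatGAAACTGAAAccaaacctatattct
Genes that shared a core did not always share a difference, and several held further cores that the others lacked. On the strand that reads GAAA, IFIT1 and IFIT3 both held GAAAGTGAAA, and both were called up, with differences of 1.21 and 0.78. Read in one orientation, ISG15, IFIT1, IFIT5, IFITM3 and IFI27 all held GAAACCGAAA, 2 of the 5 were called up, and their differences ran from -0.08 to 1.21. GAAACTGAAA stood in 8 genes, of which 2 were called up, with differences from -0.46 in ISG20 to 0.78 in IFIT3.

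Of the 39 interferon-stimulated genes, 8 rose in knockout, 0 fell and 31 did not pass. RNA came from whole cultures, so more cells expressing a gene and more RNA per cell cannot be told apart. Genes were called at a limma adjusted p under 0.05 over all 19775 genes, where 3.14% were called up and 3.94% down. At an unadjusted p under 0.05, 17 of the 39 were higher and 1 was lower, against 8.72% higher and 11.3% lower over all genes. The genes that rose were IFITM1, IFIT1, MX1, MX2, ISG15, IRF9, IFIT3 and BST2, by 1.70-fold to 2.81-fold. Differences of the 39 ran from -0.46 to 1.49 with a median of 0.22, against a median of 0.01 over all genes, and 31 of 39 were above zero (79.5%), against 52.0% of all genes. In 21 of 39 both knockout arrays lay above both wild-type arrays (53.8%, against 22.4% of all genes), and in 1 of 39 both lay below (against 23.5%). These shares are descriptions, because the list was chosen with earlier results of these data known. Over the 39 genes the median distance from the wild-type mean was 0.35 in knockout 1 and 0.19 in knockout 2, against 0.03 and -0.02 over all genes.

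The 8 calls needed all 4 arrays. With any 1 array left out, a group held a single array and all or nearly all of the calls were lost. The differences of the 8 genes then ran from 0.64 to 1.68. They had to stay above zero, because in each gene both knockout arrays lay above both wild-type arrays. Without an intensity trend in the variance 4 rises were called, those of IFITM1, IRF9, ISG15 and MX1, and those of IFIT1, IFIT3, MX2 and BST2 were lost.

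**Figure D1:**
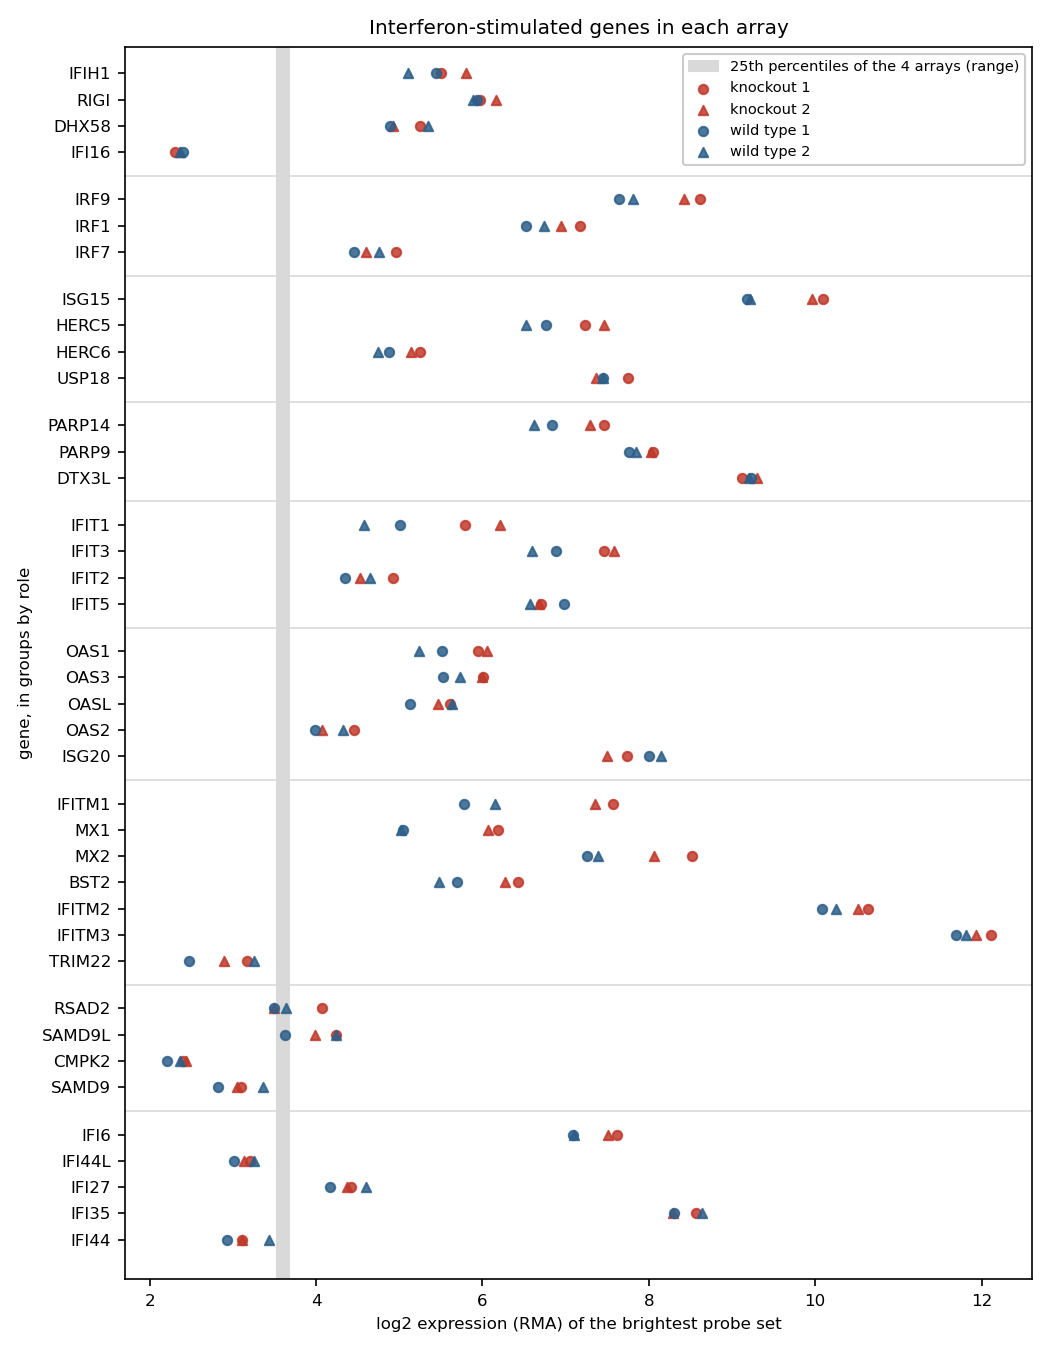
Log2 expression (RMA) of the brightest probe set of each of 39 interferon-stimulated genes, grouped by role, with 1 point for each knockout array (red) and each wild-type array (blue). The grey band spans the 25th percentiles of the 4 arrays, and 6 genes lie below it in every array. Levels of different genes rest on different probes and are not compared.

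Among the sensors, 0 of 4 passed the test in either direction, also at an unadjusted p under 0.05 in limma. IFIH1, which encodes the RNA sensor MDA5, read 5.50 and 5.80 in knockout and 5.45 and 5.10 in wild type, a difference of 0.38 (95% interval -0.10 to 0.85, adjusted p = 0.371). RIGI, the gene of RIG-I, read 5.98 and 6.16 in knockout and 5.93 and 5.89 in wild type. Both genes were a little higher in the knockout arrays without overlap, but 1 of the 3 RIGI probe sets had the opposite sign. DHX58, whose product LGP2 modulates both sensors, differed by -0.03 (95% interval -0.57 to 0.52). IFI16, a sensor of DNA, was below the 25th percentile of every array and could not be told from background.

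Of the 3 signalling genes measured, IRF9 rose, 0 fell and 2 did not pass. IRF9, the DNA-binding subunit of ISGF3, read 8.61 and 8.42 in knockout and 7.65 and 7.81 in wild type. The arrays of the groups stood well apart, with a 1.73-fold higher level in knockout (difference 0.79, SE 0.12, limma adjusted p = 0.023). IRF9 lies on chromosome 14 among expressed genes whose median difference was 0.25, the highest such value of the 39 genes. IRF1, a transcription factor induced mainly by interferon gamma, read 7.18 and 6.95 in knockout and 6.52 and 6.74 in wild type (difference 0.43, adjusted p = 0.178), and its second probe set gave 0.44. IRF7, which amplifies interferon production, overlapped between groups with a difference of 0.17 (95% interval -0.33 to 0.66).

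In the ISG15 system, 1 of 4 genes rose. ISG15 encodes a ubiquitin-like protein that is attached to other proteins during the interferon response. It read 10.09 and 9.97 in knockout and 9.18 and 9.22 in wild type, 1.78-fold higher in knockout (difference 0.83, SE 0.09, limma adjusted p = 0.0094). Its single probe set belongs to a class prone to binding related transcripts. HERC5, the main ligase that attaches ISG15, read 7.23 and 7.46 in knockout and 6.77 and 6.52 in wild type, and its difference of 0.70 missed the threshold (SE 0.15, adjusted p = 0.054). Its relative HERC6 differed by 0.38 (adjusted p = 0.242), with a second probe set at -0.11. USP18, which removes ISG15 and restrains the type I receptor, read 7.75 and 7.37 in knockout and 7.45 and 7.45 in wild type. The USP18 groups overlapped, with a difference of 0.11 (95% interval -0.28 to 0.49).

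PARP9, DTX3L and PARP14 encode ADP-ribosyltransferases and a ubiquitin ligase that act with the STAT proteins, and 0 of the 3 passed limma's test, with 1 higher at an unadjusted p under 0.05. PARP14 read 7.47 and 7.30 in knockout and 6.83 and 6.63 in wild type, and its difference of 0.65 lay just past the threshold (SE 0.14, adjusted p = 0.051). DTX3L read 9.12 and 9.30 in knockout and 9.23 and 9.21 in wild type. That is a difference of -0.0047, with a 95% interval of -0.25 to 0.25. PARP9, whose protein pairs with DTX3L, differed by 0.24 (adjusted p = 0.274), and its other probe set by -0.03.

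The IFIT genes, whose proteins bind viral RNA and hold back its translation, split within the family, with 2 of 4 rising. IFIT1 read 5.80 and 6.21 in knockout and 5.01 and 4.58 in wild type, 2.31-fold higher in knockout (difference 1.21, SE 0.23, limma adjusted p = 0.038). IFIT3 read 7.47 and 7.58 in knockout and 6.88 and 6.60 in wild type, 1.72-fold higher (difference 0.78, SE 0.14, adjusted p = 0.035), and its second probe set gave 0.58. Neither gene overlapped between groups, and IFIT1 had the larger spread between replicates in both. IFIT2 read 4.92 and 4.52 in knockout and 4.35 and 4.65 in wild type, a difference of 0.22, whereas its dimmer probe set gave 0.45, and neither passed. IFIT5 shares 1 ISRE core with IFIT1 in the sequences above, while each holds another core that the other lacks. It read 6.70 and 6.68 in knockout and 6.98 and 6.57 in wild type. Its difference was -0.08 (95% interval -0.51 to 0.34).

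Of the OAS genes and ISG20, 0 of 5 passed limma's test, with 2 higher and 1 lower at an unadjusted p under 0.05. OAS enzymes answer double-stranded RNA by making an oligoadenylate that activates RNase L. OAS1 read 5.94 and 6.05 in knockout and 5.51 and 5.24 in wild type, a difference of 0.62 (SE 0.16, adjusted p = 0.088), with 0.55 from its second probe set. OAS3 differed by 0.38 (adjusted p = 0.230), OAS2 by 0.10 and OASL by 0.15. ISG20, an exonuclease that degrades RNA, went the other way from most of the list and read 7.74 and 7.49 in knockout and 8.005 and 8.14 in wild type. Its difference of -0.46 did not pass (SE 0.13, adjusted p = 0.112), and its other probe set gave -0.52. It was the single gene of the 39 with both knockout arrays below both wild-type arrays.

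Genes that block entry, trafficking and release of viruses held 4 of the 8 rises, with 0 of 7 falling and 3 not passing. IFITM1, which encodes a membrane protein that hinders fusion of viruses with the cell, read 7.56 and 7.35 in knockout and 5.78 and 6.15 in wild type. This was the largest difference of the 39 genes, 2.81-fold (1.49, SE 0.17, limma adjusted p = 0.011). MX1, a dynamin-like GTPase that traps viral nucleoprotein, read 6.19 and 6.07 in knockout and 5.04 and 5.02 in wild type, 2.14-fold higher (difference 1.10, SE 0.14, adjusted p = 0.014). MX2, its relative that acts at the nuclear pore, read 8.52 and 8.06 in knockout and 7.26 and 7.39 in wild type, 1.95-fold higher (difference 0.96, SE 0.17, adjusted p = 0.035). BST2, also called tetherin because it holds budding virions at the cell surface, read 6.42 and 6.27 in knockout and 5.70 and 5.47 in wild type. BST2 was 1.70-fold higher (difference 0.76, SE 0.15, adjusted p = 0.045), and among the 8 calls it lay nearest the threshold.

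The other IFITM genes were read at high signal and differed less. IFITM2 read 10.63 and 10.51 in knockout and 10.09 and 10.25 in wild type, a difference of 0.40 (SE 0.10, adjusted p = 0.082). IFITM3 read 12.11 and 11.94 in knockout and 11.69 and 11.81 in wild type, a difference of 0.27 (SE 0.10, adjusted p = 0.197). In both, the knockout arrays lay above the wild-type arrays. The IFITM genes are close relatives, their only probe sets are all of types that may bind related transcripts, and the share of signal from each gene was not tested. TRIM22, an antiviral ubiquitin ligase, was below the 25th percentile in every array.

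The remaining genes did not pass. RSAD2 and CMPK2 encode viperin and its partner kinase, which make a chain-terminating nucleotide, and SAMD9 and SAMD9L restrict poxviruses. These 4 genes differed by -0.02 to 0.21, and CMPK2 and SAMD9 were below the 25th percentile of every array. The dimmer SAMD9 probe set gave 0.68, against -0.02 from the brighter one, so the probe sets disagreed. IFI6, a membrane protein of the endoplasmic reticulum in the interferon response, read 7.62 and 7.51 in knockout and 7.09 and 7.11 in wild type, without overlap (difference 0.46, SE 0.11, adjusted p = 0.075). IFI35 read 8.56 and 8.29 in knockout and 8.31 and 8.64 in wild type (difference -0.05, 95% interval -0.44 to 0.34). IFI27 differed by 0.01. IFI44 and IFI44L, microtubule-associated and related proteins, differed by -0.07 and 0.03 and were below the 25th percentile in every array.

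**Figure D2:**
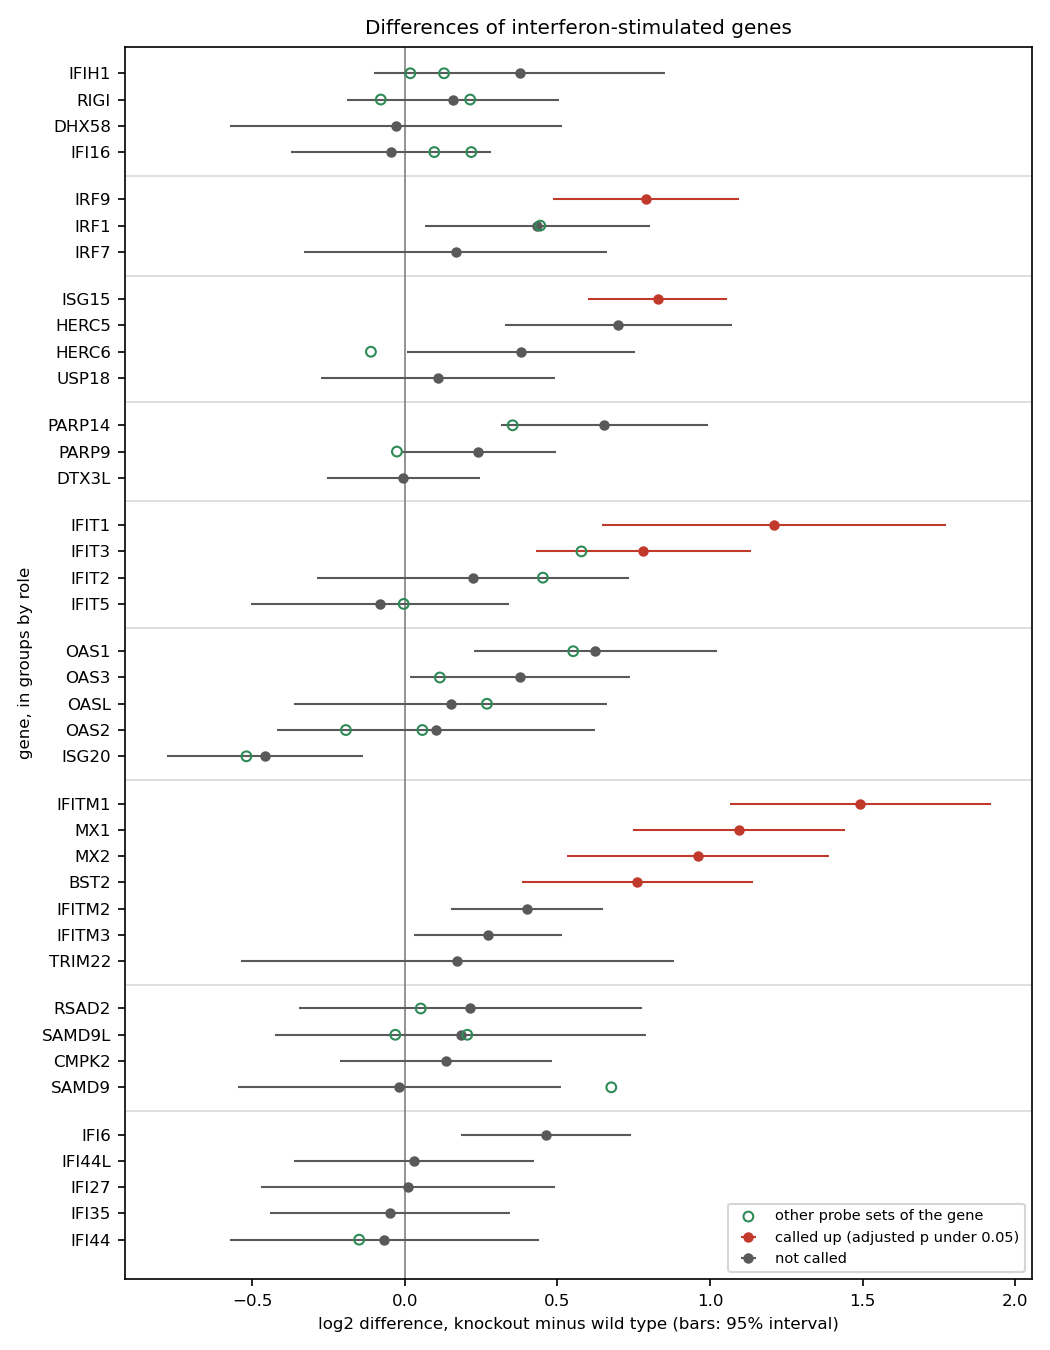
Log2 differences (knockout minus wild type) of 39 interferon-stimulated genes from the brightest probe set, with limma's 95% interval, in red where called up and grey where not. Open green circles are the other probe sets of a gene, and the 8 called genes lie between 0.76 and 1.49.

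The genes spanned the range of signal. Of the 39 genes, 17 were at or above the median level of all genes, and 5 of these were called up, against 5.24% of the 9888 genes at or above that level. Of the 22 genes below the median level, 3 were called (IFIT1, MX1 and BST2), against 1.03% of the 9887 genes below that level, and 6 lay below the 25th percentile of every array. The 25th percentiles were 3.67 and 3.59 in knockout and 3.53 and 3.66 in wild type. Knockout 2 and wild type 1 thus had the lower values at the dim end. Among the 22 dim genes knockout 1 was above knockout 2 in 15, against 6149 of all 9887 genes below the median level. Wild type 2 was above wild type 1 in 14 of the 22, against 6935 of the 9887. Among the 17 brighter genes of the list these counts were 14 and 11. The part of such shifts between replicates in the differences of the genes was not tested.

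Several genes could be read from more than 1 probe set. Of the 39 genes, 20 had a single probe set, and in 12 of the 19 others all probe sets had the sign of the brightest. Of all 63 probe sets, 47 were higher in knockout. The share over all probe sets was not worked out, and by brightest probe set 52.0% of all genes were higher. When each probe set was tested and adjusted over all probe sets, 6 were called up and 0 down, and IFIT1 (adjusted p = 0.051) and BST2 (adjusted p = 0.059) missed the threshold. The 6 were the brightest probe sets of IFITM1, ISG15, IRF9, MX1, MX2 and IFIT3. Over all genes, 2.41% of the brightest probe sets were called up with this adjustment. In all, 14 of the 39 brightest probe sets, including those of IFITM1 and ISG15, were of types that may bind related transcripts.

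Many of these genes lie side by side, and neighbours often differed in size or sign. RefSeq coordinates (GRCh38.p14) placed 24 of the 39 genes in 9 groups of neighbours, and for each gene the median difference of up to 10 expressed genes on either side, leaving out the list, gave the level of its surroundings. On chromosome 10, IFIT2, IFIT3, IFIT1 and IFIT5 follow each other, and the differences in that order were 0.22, 0.78, 1.21 and -0.08, in surroundings of -0.18. On chromosome 11, IFITM1 differed by 1.49 between IFITM2 at 0.40 and IFITM3 at 0.27, in surroundings of 0.05. MX2 and MX1 on chromosome 21 both rose, by 0.96 and 1.10 on the log2 scale, in surroundings of 0.0028. DTX3L, at -0.0047, lies between PARP9 at 0.24 and PARP14 at 0.65 on chromosome 3, in surroundings of 0.16. The surroundings of the 8 called genes had medians from -0.18 to 0.25, each smaller than the gene's own difference. The lowest surroundings, -0.42, were those of RSAD2 and CMPK2 on chromosome 2, which differed by 0.21 and 0.14.

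**Figure D3:**
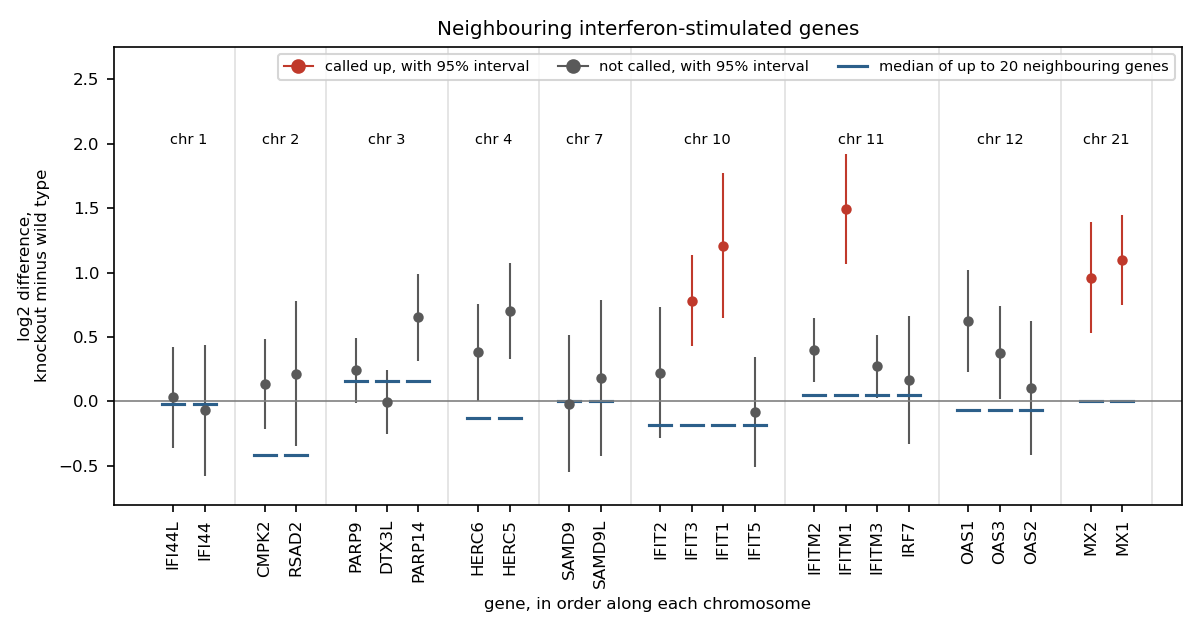
Log2 differences (knockout minus wild type) with 95% intervals of 24 interferon-stimulated genes in 9 groups of neighbours, in order along each chromosome, with called genes in red. Blue bars give the median difference of up to 20 expressed genes around each, and on chromosome 10 IFIT1 at 1.21 stands beside IFIT5 at -0.08.

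Called genes were found with and without an ISRE core. Of the 20 genes with a core, 6 were called up, and both knockout arrays were above both wild-type arrays in 13, with a median difference of 0.38. Of the 10 genes with a promoter and no core in the 250 bases, 1 was called up (IRF9), and 6 had both knockout arrays above, with a median of 0.17. Over all genes 3.14% were called up and 22.4% had both knockout arrays above. The difference between genes with and without a core was not tested. A second element, the STAT binding site TTCNNNGAA, was found in 9 of the 30 genes (30.0%), against 8.09% of all genes with a promoter. Of these 9 genes, 4 were called up, namely BST2, IFITM1, IRF9 and MX1, and in 3 of the 9 the site overlapped an ISRE core. Among 1194 measured genes outside the list that held the STAT site, 3.02% were called up. Among 502 measured genes outside the list that held the ISRE core, 4.38% were called up, with a median difference of -0.01. A match to these letters is a description and not evidence of binding.

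**Figure D4:**
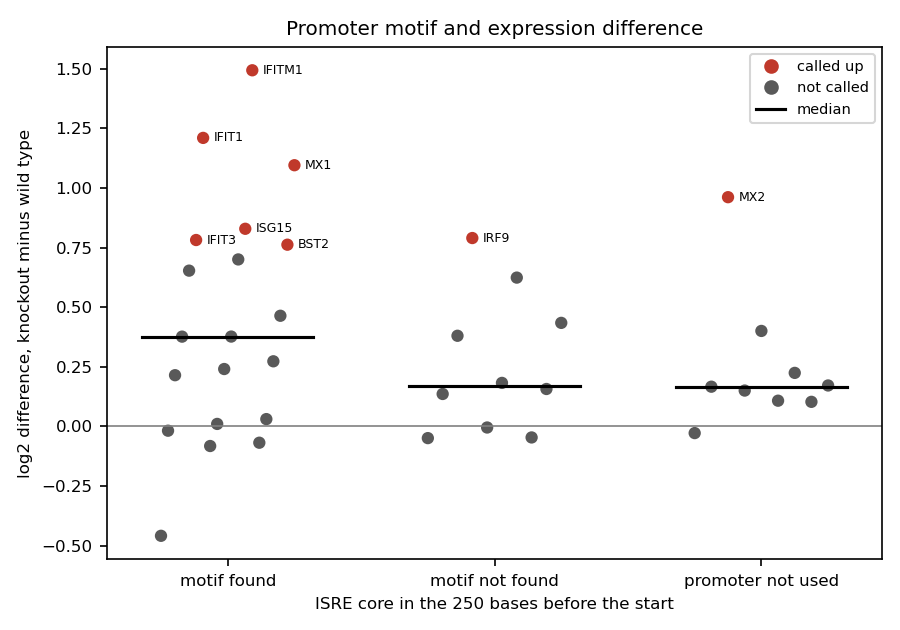
Log2 difference (knockout minus wild type) of interferon-stimulated genes with an ISRE core in the 250 bases before the start (20 genes), without one (10 genes) and without a promoter in the table used (9 genes), with called genes in red and black bars at the medians. Genes with a core range from -0.46 to 1.49, with a median of 0.38.

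The genes upstream of the programme did not pass the test. Interferon ligands had 0 calls of 18 measured by limma, also 0 at an unadjusted p under 0.05, and 10 of the 18 were below the 25th percentile of every array. The brightest ligand probe set, that of IFNA17, read 5.28 and 4.98 in knockout and 5.43 and 5.38 in wild type (adjusted p = 0.455). IFNB1 was below the 25th percentile in every array. Interferon receptors, their kinases and related factors had 0 calls of 12, with 1 higher and 1 lower at an unadjusted p under 0.05 and a median of -0.03. Its brightest gene, IFNGR1, a chain of the interferon gamma receptor, read 9.55 and 9.80 in knockout and 10.32 and 9.85 in wild type (difference -0.41, adjusted p = 0.286). That probe set may bind related transcripts, and with such probe sets dropped the IFNGR1 difference was 0.0079. Sensing adaptors and kinases had 0 calls of 12, and 0 at an unadjusted p under 0.05, with a median of -0.04. Their brightest gene, TRIM25, the ligase that helps activate RIG-I, read 9.02 and 8.71 in knockout and 9.14 and 9.22 in wild type (difference -0.32, adjusted p = 0.251). Negative regulators had 0 calls of 8, with 2 higher and 2 lower at an unadjusted p under 0.05, and the brightest, the phosphatase gene PTPN11, differed by -0.08.

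A further list of interferon-induced genes outside the 40 had 2 rises of 40 measured (5.0%, against 3.14% of all genes), 0 falls and 38 that did not pass. Its median difference was 0.14, and both knockout arrays lay above both wild-type arrays in 16 of the 40 and below in 6. Among all genes both lay above in 22.4% and below in 23.5%. DDX60, a helicase linked to RIG-I signalling, read 5.56 and 5.71 in knockout and 4.51 and 4.28 in wild type, with no overlap (difference 1.24, SE 0.16, limma adjusted p = 0.015). TNFSF10, the death ligand TRAIL, read 8.16 and 8.10 in knockout and 7.33 and 6.90 in wild type (difference 1.01, SE 0.16, adjusted p = 0.026). The brightest gene of this list, the RNA-editing enzyme gene ADAR, differed by 0.13 (adjusted p = 0.699). Both calls were lost with any single array left out, and that of TNFSF10 also without the intensity trend (adjusted p = 0.051).

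Markers of cells that could bring interferon responses of their own were read beside these genes. Of 7 leukocyte markers, 0 rose and 1 fell, LYZ (lysozyme), which read 8.95 and 9.75 in knockout and 11.27 and 10.59 in wild type (adjusted p = 0.049). The pan-leukocyte marker PTPRC was below the 25th percentile in every array, the only 1 of the 7. CD14 and CD79A, like LYZ, were at or above the median level of all genes. The log2 values summed over the list came to 39.6 and 39.6 in knockout and 40.7 and 41.5 in wild type. LYZ had the largest difference of that list, -1.58. Such sums of log2 values, here and below, weigh dim and bright probe sets alike and are not amounts of RNA. Of 4 plasmacytoid dendritic cell markers 0 were called, also at an unadjusted p under 0.05, with sums of 18.6 and 18.8 in knockout and 18.1 and 18.6 in wild type. Of 6 fibroblast markers 0 were called, also at an unadjusted p under 0.05, with sums of 29.1 and 29.2 in knockout and 27.9 and 29.1 in wild type. With the mean of all probe sets in place of the brightest, the collagen gene COL1A1 was called up (0.55, adjusted p = 0.047), against 0.13 from its brightest probe set. Of 6 endothelial markers 1 fell, PECAM1, at 6.58 and 6.20 in knockout and 7.17 and 7.37 in wild type (adjusted p = 0.043). At an unadjusted p under 0.05 in limma 1 endothelial marker was higher, TEK. It read 4.93 and 4.88 in knockout and 4.43 and 4.11 in wild type (adjusted p = 0.103). CDH5 and KDR, 2 of the 6 endothelial markers, were below the 25th percentile in every array. Of the 10 hepatocyte markers 3 fell, APOB by 0.74, FGB by 0.63 and SERPINA1 by 0.49, 0 rose and 7 did not pass. Over all genes 3.94% were called down, and 678 of the 9888 at or above the median level, where all 10 hepatocyte markers lay. In 6 of the 10 both knockout arrays lay below both wild-type arrays. That held for 23.5% of all genes and 34.8% of those at or above the median level. The calls of LYZ, PECAM1, APOB, FGB and SERPINA1 were each lost with any single array left out, and all but that of APOB also without the intensity trend. LYZ was lost under median centring as well (adjusted p = 0.0565), and LYZ, FGB and PECAM1 with adjustment over all probe sets. With the mean of all probe sets PECAM1 differed by -0.40 (adjusted p = 0.127). Dropping probe sets prone to cross-hybridisation ended the call of PECAM1 and gave SERPINA1 a difference of -0.96. LYZ and APOB could not be tested under that setting. The part of these marker differences in the interferon-stimulated genes was not tested.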

How the data were processed

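The deposited table gives log2 expression values for 54613 probe sets on 4 arrays, made by the authors with RMA and the affy package, per the submitters' processing notes. RMA quantile-normalizes probes before summarising them, which takes out much of any shift common to most genes, although the summarised arrays still differ at the dim end. Neither tool versions nor the set of arrays normalized together is stated. No detection calls were used, and precision is limited by having 4 arrays.

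Groups and replicate numbers came from the sample titles. Of the probe sets, 41091 had 1 gene symbol and were used, 1801 had several and 11721 had none. Each gene was read from its brightest probe set. Knockout was compared with wild type with limma 3.58.1 in R 4.3.3 (lmFit, eBayes with an intensity trend), two-sided, with Benjamini-Hochberg adjustment over 19775 genes and no filter. Residual degrees of freedom were 2, with 3.62 added by the prior. With 2 arrays a group, the smallest p of an exact permutation test is 0.333, so none was run. The steps were tested on simulated data. Motif searches used Python 3.11.15.

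The members and gene lists were chosen with earlier results of these data known. Every called member, the 5 brightest members, the 3 uncalled members with the largest difference in each direction, and of other lists up to 3 called genes each way and the brightest were named with values, and other members more briefly. Other genes named beyond this were chosen after their values were seen. Alternatives covered the variance model, the probe set choice, normalization, a filter, the threshold, left-out arrays and the pairing.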

Additional observations from a re-analysis of the deposited data

How the results depend on the processing

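The 8 rises among interferon-stimulated genes numbered 4 with a variance prior free of trend, 5 when probe sets prone to cross-hybridisation were dropped (where 6 of the 8 genes could still be tested and BST2 was lost) and 13 at an adjusted p under 0.10, against 783, 826 and 2236 calls over all genes in place of 1399. Why the trend mattered was not tested. Leaving out 1 array gave 0 to 1 rises and 37 to 192 calls over all genes, from a fit with fewer samples, in which a lone array takes its spread from the opposite group. The count of falls was 1, not 0, with the mean of all probe sets (ISG20), and 1 with the crossed pairing. The other settings gave 6 to 11 rises. Same-numbered arrays did not deviate together (r = -0.55 between the groups' replicate differences, over genes that are not independent), so the numbering was not read as a pairing. With a replicate block there were 0 rises and 175 calls. The crossed pairing, chosen after seeing the data, gave 15 rises and 3662 calls. The differences of the 8 called genes kept their sign under every setting that could test them. Repeated quantile normalization could have changed a sign in any of the 8, and probe set choice in IFIT3 alone. Each of the other called genes had a single probe set and rests on it. Median centring moved the smallest of these differences, that of BST2, only from 0.76 to 0.75. With an array left out the sign was fixed, since the groups did not overlap, and the remaining settings leave the differences as they are. HERC5 and PARP14 passed with a robust prior, with repeated quantile normalization and among genes at or above the median level, where IFI6 passed as well. With the mean of all probe sets HERC5, IFI6 and OAS1 were called up and ISG20 down. Some uncalled differences changed sign, and the cause was not tested. DTX3L read 0.0354 and IFI35 0.0121 under repeated quantile normalization, and IFNGR1 0.0079, in place of -0.41, without cross-hybridising probe sets. Over the left-out arrays DTX3L ran from -0.091 to 0.0816, IFI35 from -0.22 to 0.12, IFIT5 from -0.29 to 0.13, IFI44 from -0.32 to 0.18, ADAR from -0.0146 to 0.27, ALB from -0.0065 to 0.19, IL3RA from -0.53 to 0.024 and COL1A1 from -0.0225 to 0.28.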

Other observations

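Of the measured interferon-related genes outside the list, those that missed the threshold with an adjusted p under 0.10 are given here, a limit set after their values were seen. The guanylate-binding protein genes GBP1 and GBP2, which interferon gamma induces strongly, were higher in both knockout arrays. GBP1 read 7.26 and 7.64 in knockout and 6.73 and 6.16 in wild type (difference 1.01, SE 0.23, limma adjusted p = 0.068). GBP2 read 6.83 and 6.87 in knockout and 6.29 and 6.26 in wild type (difference 0.57, SE 0.12, adjusted p = 0.051). IFNLR1, the specific chain of the receptor for type III interferons, read 7.46 and 7.23 in knockout and 7.80 and 7.92 in wild type (difference -0.51, SE 0.13, adjusted p = 0.080). STAT3, a transcription factor activated by Janus kinases, read 9.96 and 10.10 in knockout and 9.69 and 9.58 in wild type (difference 0.39, SE 0.10, adjusted p = 0.080). EPSTI1, an interferon-induced gene, read 4.86 and 4.86 in knockout and 4.25 and 4.37 in wild type (difference 0.55, SE 0.15, adjusted p = 0.099). In GBP1, GBP2, STAT3 and EPSTI1 both knockout arrays lay above both wild-type arrays, and in IFNLR1 both lay below.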
